A study of Mus musculus with 7 samples.

Results

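The Ift, Bbs and Ttc genes encode proteins of cilium building, cilium cargo traffic and the wider family of tetratricopeptide repeat proteins. They were taken by name: every gene whose symbol starts with Ift, Bbs or Ttc followed by a number, except Ttc34, which lies 2.84 Mb from Phf13 on chromosome 4. The rule gave 62 of 18194 tested genes, namely 14 Ift, 8 Bbs and 40 Ttc genes. The rule reads symbols only, though it was proposed with earlier results of these data known. They were measured in whole testis of mice aged 15 to 20 weeks, 3 labelled Phf13 knockout and 4 labelled wild type, with 1 Affymetrix array each. The Phf13 protein carries a PHD finger and binds chromatin. The sources used here give neither the design of the Phf13 allele nor the strain, and they name no other allele or treatment. The labels do not say that each array is a separate animal, so the p-values cover only the spread among these 7 samples, and some of it may be technical.

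All values are log2 signals, so a difference of 1 is a doubling. Fold changes are given as log2 differences, knockout minus wild type, each gene is read from its brightest probe set, and "rose" and "fell" are used for genes with a limma adjusted p under 0.05 over all 18194 genes. Phf13 had log2 signals of 6.04, 5.83 and 5.71 in knockout arrays 1 to 3 and of 8.66, 8.64, 8.73 and 8.54 in wild type arrays 1 to 4, a log2 difference of -2.78 (SE 0.09, limma adjusted p = 8.76e-06). Array medians lay between 5.01 and 5.08. Precision is limited by the 7 arrays, since hybridisation gives no read depth. Germ cell and somatic markers of the testis were present, and of 4 epididymis markers Lcn5, Lcn8 and Rnase10 were dim or moderate in both genotypes. The epididymis gene Adam7 had signals of 3.49, 7.07 and 3.02 in knockout and 3.39, 3.10, 5.2 and 3.22 in wild type, so knockout 2 and wild type 3 stood apart. Without these 2 arrays 8 members fell and 3 rose, against 679 and 964 of all genes. Of the 18 genes past the threshold with all arrays, 8 stayed past it. The median log2 difference of the members was -0.24, against -0.20 with all arrays. The difference between the 3' and 5' control probe sets, a measure of RNA integrity, was 0.74 to 0.82 for Actb in knockout and 0.69 to 0.77 in wild type arrays, and -0.01 to 0.06 and 0.04 to 0.09 for Gapdh.

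Intraflagellar transport (IFT) moves building blocks along the microtubules of a growing cilium or flagellum. Its IFT-B complex travels outward with kinesin and IFT-A travels back with dynein, while the BBSome, a coat of BBS proteins, carries membrane cargo on these trains. In the testis the machinery is known for building the sperm tail, and several Ttc proteins are IFT, BBSome or axoneme subunits under another name. Other Ttc proteins share only the repeat and act in protein folding, lipid signalling or RNA decay.

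Most of these genes were lower in knockout testis, by small amounts. In all, 15 of the 62 genes fell, 3 rose and 44 did not pass the test. Across all tested genes 7.05% fell, 9.07% rose and 16.1% did either. A negative fold change was found for 50 of the 62 members (80.6%) and for 59.9% of all genes. All 14 Ift and all 8 Bbs values were negative, and they stayed so under quantile normalization, while 28 of 40 Ttc values were. The median log2 fold change was -0.20 for the members, between -0.70 for Ttc23 and 0.66 for Ttc7b, and -0.045 for all genes. Every knockout array lay below every wild type array for 27 members and above for 3, against 15.2% and 12.8% of all genes (28.0% in either direction). The genes that fell were Ift43, Ift172, Bbs9 and 12 Ttc genes, and the 3 that rose were all Ttc genes. With quantile normalization 13 of these 18 genes stayed past the threshold. Ift43 (limma adjusted p = 0.0523) and Ift172 (limma adjusted p = 0.0672) were among those that did not. In that run 13 members fell and 2 rose, against 1402 and 1616 of all genes. Centring each array on its median made 24 members fall and 3 rise, and changed the split of all genes from 1651 rose and 1283 fell to 1572 and 2227.

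**Figure D1:**
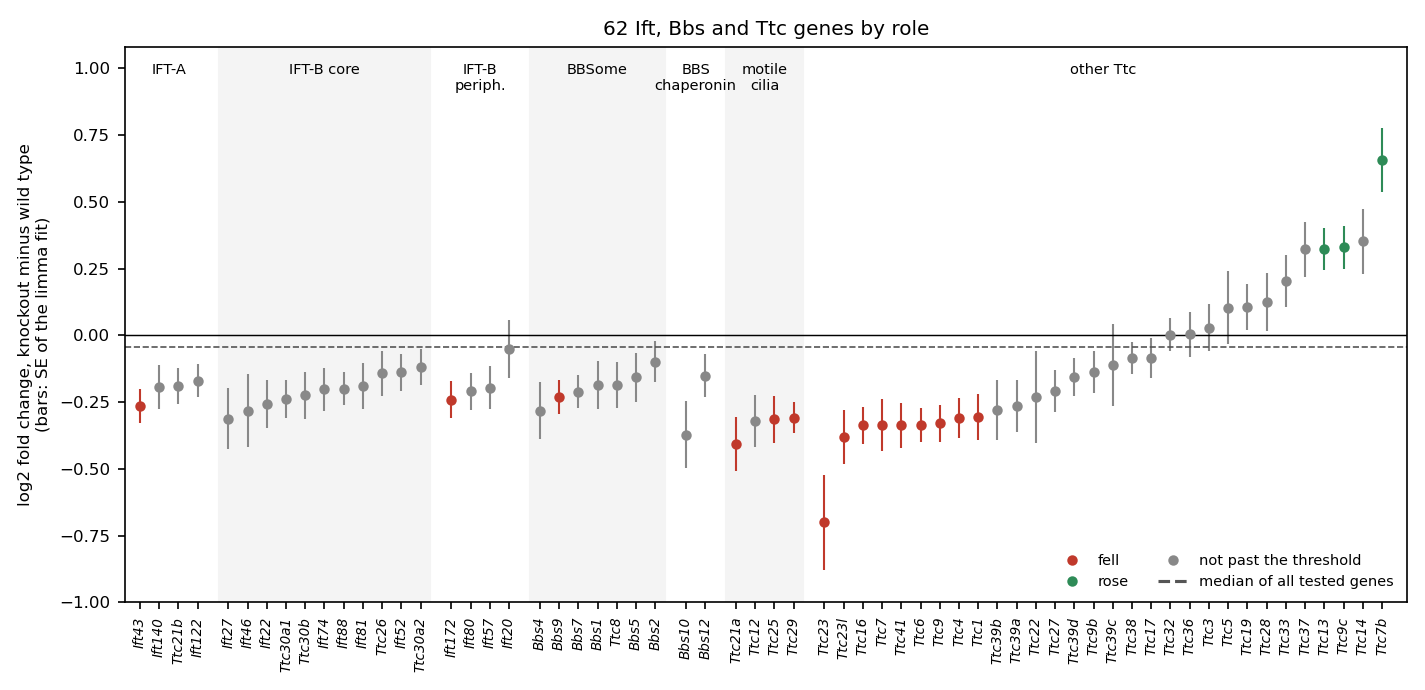
Log2 fold change (knockout minus wild type) of each of the 62 genes, grouped by role and ordered by size, with bars for the SE of the limma fit (n = 3 and 4 arrays); the dashed line is the median of all tested genes, -0.045. All IFT, BBSome, BBS chaperonin-like and motile cilium genes lie below 0, and the genes above 0 are all among the other Ttc genes.

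Promoter sequence is a feature that the naming rule did not use. Transcription factors of the RFX family, known regulators of ciliary genes, bind a palindromic element called the X-box. Its arms were searched on both strands as GTNNCC and NGNAAC with 0 to 3 bases between them, in windows from 250 bases before to 50 after each gene start in the RefSeq promoter table (GRCm38.p6), which holds 52 of the 62 members. The letters were found in 11 of 52 members (21.2%) and in 6.81% of 14369 tested genes with a window. A narrower spelling, GTTNCC and GGNAAC with 2 bases between them, was found in 3 members (5.77%) and 0.661% of genes, and the full X-box consensus in 2 members (3.85%) and 2.03% of genes. These spellings were chosen with their counts seen. Of the 13 members that fell and have a window, only Ttc29 held the wide spelling. A match describes letters and is not a measured binding site. Most members with a window held no match. The stretches of the 11 that did are shown with the matched letters in capitals, read 5′ to 3′ on the strand of the gene. In Ttc29, Bbs1, Ift74, Ttc17 and the first listed stretches of Ift57 and Ift22, the spelling is met on the opposite strand.
Ttc29, chr8:78213294-78213321, plus strand: cccctctGTTTCCATGGAGACgctttca
Bbs7, chr3:36613490-36613517, minus strand: cgccccgGTTGCCTTGGAAACcggccag
Ttc26, chr6:38381484-38381511, plus strand: cggcggcGTTGCCGTGGAAACggagctc
Ttc30a2, chr2:75978183-75978210, minus strand: ttggcttGTTGCCATGGGAACaagcaca
Ift57, chr16:49699200-49699227, plus strand: gggtctgGTTGCCGTGGTGACcggctgc
Ift57, chr16:49699227-49699253, plus strand: ccctgcgGTTGCCTGGTAACggtgggg
Ift22, chr5:136908080-136908107, plus strand: tgtcaggGTTTCCTGGGCTACtgcgcag
Ift22, chr5:136908110-136908137, plus strand: gttcccgGTCGCCGTGGAAACtgaccag
Bbs1, chr19:4906606-4906633, minus strand: tgagctgGTTGCCAAGGCGACgcctggg
Bbs4, chr9:59353465-59353492, minus strand: tcagctgGTCGCCCGGGAAACggtcggc
Ift74, chr4:94614479-94614505, plus strand: ggtgaccGTTGCTAGGATACgcggcgt
Ttc17, chr2:94406729-94406756, minus strand: tcctccaGTTCCAGAGGCGACctcccca
Ttc27, chr17:74717597-74717625, plus strand: ttcaactGTCTCCACTAGCAACaactccc
The Bbs7, Ttc26 and Ttc30a2 stretches hold the narrower spelling, with GTTGCC as the left arm on the strand shown. Ift57 and Ift22 each hold 2 matches close together. The matches of Bbs1 and Bbs4 lie after the gene start of this table, and that of Ift74 spans it. Apart from Ttc29, none of these 11 genes passed the test: their log2 fold changes ran from -0.28 for Bbs4 to -0.09 for Ttc17, all negative.

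All 4 IFT-A genes were lower in knockout testis, and 1 of them fell. Ift43, a small subunit of the retrograde complex, had signals of 10.31, 10.38 and 10.27 in the knockout arrays, against 10.64, 10.64, 10.56 and 10.50 in wild type. The groups did not overlap, and the difference was -0.27 (SE 0.06, limma adjusted p = 0.0293, and 0.0523 with quantile normalization). Ift122 (-0.17, adjusted p = 0.0940), Ift140 (-0.19, adjusted p = 0.139) and Ttc21b (-0.19, adjusted p = 0.0911) did not pass. Ift122 signals were 10.15, 10.27 and 10.12 in knockout and 10.39, 10.31, 10.36 and 10.34 in wild type, so the 2 groups lay apart although the change was small. The second probe set of Ttc21b, dimmer than the one used, had a log2 difference of -0.45 with an adjusted p of 0.0261 over all probe sets.

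The 11 measured genes of the IFT-B core had negative fold changes without exception, and none passed limma's adjusted threshold, while 6 were lower at an unadjusted p under 0.05, a level at which 18.4% of all genes were lower. Their median log2 fold change was -0.20, with a range from -0.31 for Ift27 to -0.12 for Ttc30a2. Ift88, whose loss is a classic cause of missing cilia, had signals of 8.39, 8.46 and 8.47 in knockout and 8.73, 8.61, 8.64 and 8.58 in wild type, a log2 difference of -0.20 (SE 0.06, adjusted p = 0.0605). Every knockout array was lower than every wild type array. Ift22, a small GTPase-like subunit (-0.26, adjusted p = 0.0817), Ift27, another GTPase-like subunit (-0.31, adjusted p = 0.0955), and Ift74, which with Ift81 binds tubulin (-0.20, adjusted p = 0.121), were similar in direction. Ift27 was lowest in knockout 1, at 8.05, beside 8.47 and 8.32 in the other knockout arrays and 8.48 to 8.77 in wild type. Ttc30a1 (-0.24, adjusted p = 0.0552), Ttc30a2 (-0.12, adjusted p = 0.257) and Ttc30b (-0.23, adjusted p = 0.114) encode near-identical copies of 1 IFT-B subunit and lie next to each other on chromosome 2. Their probe sets may share signal, so the values of the single copies are uncertain.

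In the peripheral part of IFT-B, 1 of 4 genes fell. Ift172, which links the train to its turnaround at the cilium tip, had signals of 10.98, 11.05 and 11.05 in knockout and 11.33, 11.36, 11.20 and 11.18 in wild type, a log2 difference of -0.24 (SE 0.07, adjusted p = 0.0463). Its adjusted p was 0.0866 once a block stood for the title-number groups, a possible batch whose make-up is given with the values by group. With quantile normalization it was 0.0672. Ift80 (-0.21, adjusted p = 0.0712) and Ift57 (-0.20, adjusted p = 0.127) did not pass. Ift20, which also works at the Golgi and is needed for sperm formation, was closest to no change among the Ift genes. Its signals were 7.32, 7.64 and 7.60 in knockout and 7.35, 7.60, 7.66 and 7.68 in wild type, and the groups overlapped (-0.05, SE 0.11, adjusted p = 0.762). Without knockout 1 it was the only Ift or Bbs gene with a positive value.

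Of the 7 measured BBSome genes, 1 fell and 6 did not pass, and all 7 fold changes were negative (median -0.19). Bbs9, a scaffold subunit, had signals of 7.66, 7.84 and 7.79 in knockout and 7.99, 8.0, 8.02 and 7.97 in wild type. The wild type arrays were within 0.05 of each other, and the log2 difference was -0.23 (SE 0.06, adjusted p = 0.0418; 0.0714 with the title-number block). Bbs7 had signals of 8.65, 8.71 and 8.61 in knockout and 8.89, 8.93, 8.79 and 8.86 in wild type. The groups lay apart, with a log2 difference of -0.21 (SE 0.06) and an adjusted p of 0.0506. Bbs4 (-0.28, adjusted p = 0.105), Ttc8, the BBSome subunit of the Ttc name family (-0.19, adjusted p = 0.167), and Bbs5 (-0.16, adjusted p = 0.266) overlapped between the genotypes. Bbs10 and Bbs12, chaperonin-like proteins that help the BBSome assemble, had log2 fold changes of -0.37 (adjusted p = 0.0768) and -0.15 (adjusted p = 0.218). Bbs10 varied most in knockout among the Bbs genes, with signals of 6.69, 7.01 and 6.46 beside 7.0, 7.01, 7.13 and 7.23 in wild type. The signal of Bbs12, 5.19 on average, was near the array medians and was not shown to lie above background.

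The Ttc genes of motile cilia and the sperm tail were lower as well: of 4 measured, 3 fell and 1 did not pass. Ttc29, a protein needed for the sperm tail axoneme, had signals of 10.52, 10.64 and 10.63 in knockout and 10.91, 10.92, 10.89 and 10.90 in wild type. The wild type arrays were nearly identical and every knockout array was lower, a log2 difference of -0.31 (SE 0.06, adjusted p = 0.0156). Ttc21a, the paralogue of the IFT-A subunit gene Ttc21b, had signals of 8.07, 8.27 and 8.13 in knockout and 8.69, 8.73, 8.41 and 8.42 in wild type, a log2 difference of -0.41 (SE 0.10, adjusted p = 0.0321; 0.0593 with the title-number block). Ttc25, which docks outer dynein arms on the axoneme, had signals of 9.23, 9.41 and 9.39 in knockout and 9.64, 9.85, 9.60 and 9.54 in wild type, a log2 difference of -0.31 (SE 0.09, adjusted p = 0.0460; 0.0758 with the block). For Ttc12, which helps assemble dynein arms, the log2 difference was of like size, -0.32 (SE 0.10), but knockout 2 (8.52) lay almost level with the lowest wild type array (8.53), and the adjusted p was 0.0586.

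**Figure D2:**
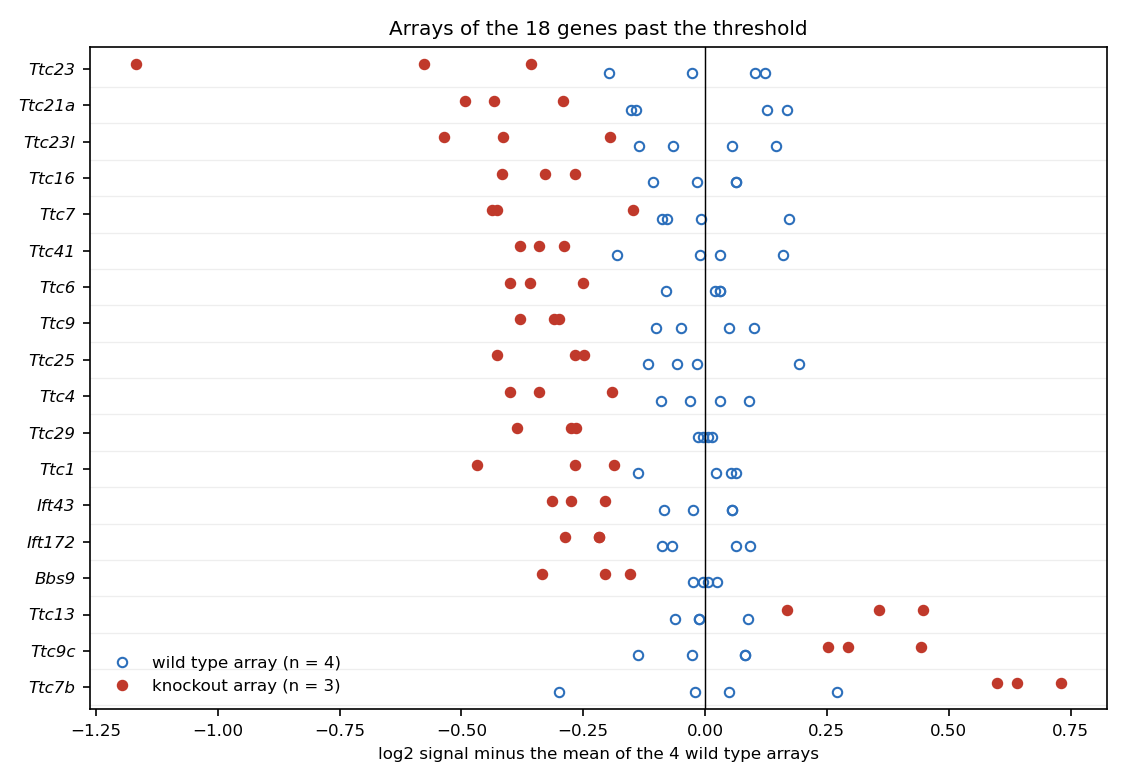
Log2 signal of each array minus the mean of the 4 wild type arrays, for the 18 genes past the threshold (filled: 3 knockout arrays; open: 4 wild type arrays). Knockout and wild type arrays do not overlap for any of the 18 genes, nor for 28.0% of all tested genes. Choosing genes by the threshold on these same arrays favours such a gap. Knockout 1 of Ttc23 lies farthest from the wild type mean.

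Among the 30 other Ttc genes, 9 fell (30%), 3 rose (10%) and 18 did not pass. Of all tested genes 7.05% fell and 9.07% rose, so the share that rose was near that of all genes. The widest fall was that of Ttc23, whose protein works in Hedgehog signalling at the base of the primary cilium. Its signals were 7.28, 7.87 and 8.09 in knockout and 8.55, 8.57, 8.25 and 8.42 in wild type. The knockout arrays were widely spread, the log2 difference was -0.70 (SE 0.18, adjusted p = 0.0336), and without knockout 1 it was -0.47 and no longer past the threshold. The similarly named Ttc23l had signals of 7.43, 7.55 and 7.77 in knockout and 7.90, 8.11, 7.83 and 8.02 in wild type, a log2 difference of -0.38 (SE 0.10, adjusted p = 0.0372).

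Ttc4, a cochaperone of Hsp90, had signals of 9.61, 9.76 and 9.55 in knockout and 9.98, 10.04, 9.92 and 9.86 in wild type, a log2 difference of -0.31 (SE 0.07, adjusted p = 0.0291). Ttc6 fell by 0.34 (SE 0.06, adjusted p = 0.0161), from 9.28, 9.29, 9.18 and 9.29 in wild type to 8.86, 9.01 and 8.90 in knockout. Ttc16 also fell by 0.34 (SE 0.07, adjusted p = 0.0192), with signals of 9.01, 9.16 and 9.10 in knockout and 9.49, 9.49, 9.32 and 9.41 in wild type. In each of these 3 genes the highest knockout array was knockout 2 and stayed below the lowest wild type array. Ttc9 had signals of 7.70, 7.78 and 7.77 in knockout and 8.18, 8.13, 8.03 and 7.98 in wild type (-0.33, SE 0.07, adjusted p = 0.0196). Ttc41 had signals of 7.47, 7.38 and 7.42 in knockout and 7.92, 7.79, 7.58 and 7.75 in wild type (-0.34, SE 0.08, adjusted p = 0.0322). Both genes were tight in knockout, with an SD of 0.05 or less over 3 arrays, and looser in wild type. Ttc1 fell by 0.31 (SE 0.09, adjusted p = 0.0452; 0.0738 with the title-number block), with signals of 8.91, 9.19 and 9.11 in knockout and 9.43, 9.40, 9.44 and 9.24 in wild type.

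The paralogues Ttc7 and Ttc7b, scaffolds of the kinase complex that makes phosphatidylinositol 4-phosphate at the plasma membrane, moved in opposite directions. Ttc7 had signals of 6.99, 7.0 and 7.28 in knockout and 7.35, 7.60, 7.34 and 7.42 in wild type, a log2 difference of -0.34 (SE 0.10, adjusted p = 0.0489; 0.0672 with the block). Its other 4 probe sets, all dimmer, had log2 fold changes between -0.01 and 0.12. Ttc7b had signals of 7.02, 6.93 and 6.89 in knockout and 6.27, 5.99, 6.56 and 6.34 in wild type, a log2 difference of 0.66 (SE 0.12, adjusted p = 0.0153), a level 1.58-fold higher. Its second probe set had a log2 difference of 0.20 with an unadjusted p of 0.0757. The difference between the changes of these paralogues was not tested.

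Ttc13 and Ttc9c also rose. Ttc13 had signals of 7.27, 7.08 and 7.36 in knockout and 6.85, 6.90, 7.0 and 6.90 in wild type, a log2 difference of 0.32 (SE 0.08, adjusted p = 0.0309; 0.0594 with the block). Its other 2 probe sets had larger log2 fold changes, 0.59 and 0.56, and both passed. Ttc9c had signals of 6.90, 6.94 and 7.09 in knockout and 6.73, 6.51, 6.62 and 6.73 in wild type (0.33, SE 0.08, adjusted p = 0.0298). Its probe sets disagreed: the 4 log2 fold changes were 0.33, -0.28, 0.25 and -0.11, and the negative value of -0.28 had an unadjusted p of 0.0185. The rise of Ttc9c is thus that of its brightest probe set, and none of the other 3 passed.

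The remaining Ttc genes did not pass. Ttc14 (0.35, adjusted p = 0.0854) and Ttc37, a part of the RNA-decay SKI complex (0.32, adjusted p = 0.0651), were higher without passing, and Ttc14 passed with the title-number block. Of the 10 probe sets of Ttc14, 9 were higher in knockout. Ttc3, which encodes a ubiquitin ligase, had a log2 difference of 0.03 at its brightest probe set, and all 7 of its probe sets were positive, up to 0.24. Ttc32 and Ttc36 were closest to 0, at 0.0025 and 0.0033, and Ttc5, a cofactor of the acetyltransferase p300, had overlapping arrays (0.10, adjusted p = 0.626). Ttc39a (-0.26), Ttc39b (-0.28) and Ttc39d (-0.16) had negative values without passing, although a second probe set of Ttc39b passed over all probe sets (-0.42, adjusted p = 0.0387), while Ttc39c (-0.11, adjusted p = 0.636) was spread in wild type from 8.18 to 8.74.

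Probe sets that were not used for the tests gave a check within genes. Of 28 members with several probe sets, 19 had the same sign at every one and 9 did not. Among the 18 genes past the threshold, 8 have several probe sets, of which 6 had the same sign throughout, and the exceptions were Ttc7 and Ttc9c. Ttc6 passed at both of its probe sets (-0.34 and -0.50) and Ttc1 had values of -0.31 and -0.35. In all, 78 of 120 probe sets of the members were negative, the brightest ones included. Of all tested genes, 59.9% were negative at their brightest probe set. Sign counts over every probe set were not made for all genes.

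Mean signal divided the members unevenly. Of 52 members with a mean signal above the median of all tested genes, 15 fell (28.8%) and 3 rose, and of 10 below it none passed limma's threshold, while 1 was higher and 1 lower at an unadjusted p under 0.05. Among all genes above that median, 11.9% fell and 13.5% rose, and among those below it 2.24% fell and 4.61% rose, and 0 of 10 lies near those shares. Probe set brightness also depends on the probes, so it does not rank the genes by transcript number.

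**Figure D3:**
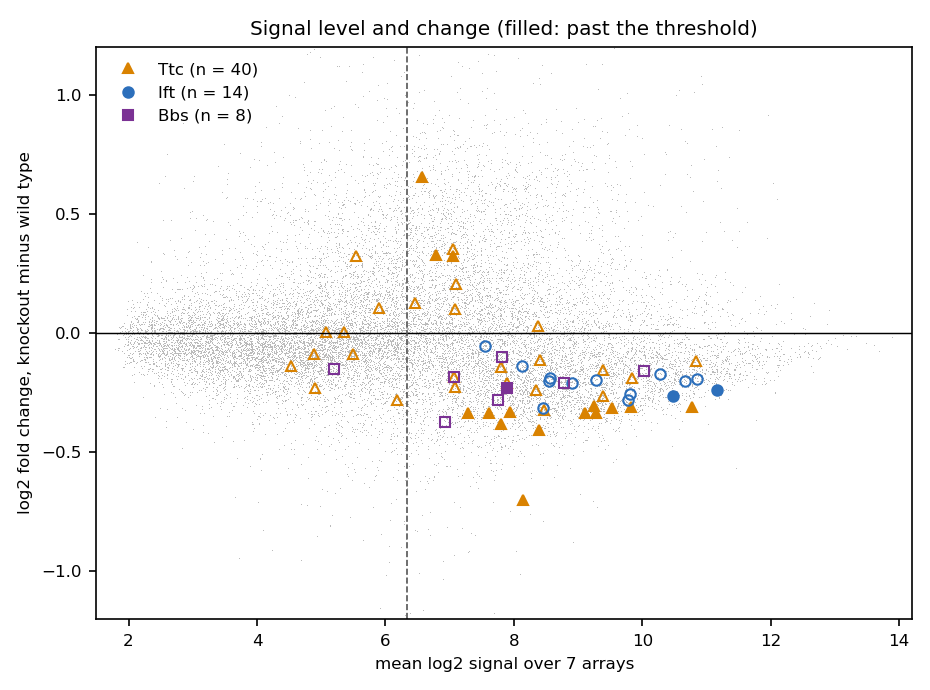
Mean log2 signal over 7 arrays against log2 fold change for the members (filled: past the threshold) over all tested genes in grey, of which 25 lie outside the plotted range of 1.2 either way; the dashed line is the median signal of all tested genes. The Ift genes form a narrow band between -0.31 and -0.05, and the 3 filled points above 0 are Ttc genes.

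The number that opens each array title has no stated meaning, and sharing its first 4 digits puts the arrays into 3 groups that could be batches. They hold knockout 1 and wild type 1 in the first, knockout 2 beside wild type arrays 2 and 3 in the second, and the pair of knockout 3 and wild type 4 in the third. Within these groups the median difference of the 62 members was -0.31, -0.12 and -0.14, and that of all genes -0.03 in each. The difference was thus widest in the group of knockout 1. For 42 members it was negative in all 3 groups, among them 12 of 14 Ift and 7 of 8 Bbs genes, and for 7 members, all Ttc genes, it was positive in all 3. Of all tested genes 32.3% were negative and 21.6% positive in all 3 groups. With these groups as a block 9 members fell and 3 rose, against 915 and 1402 of all genes. Of the 18 genes past the threshold, 11 stayed past it and 7 did not: Ift172, Bbs9, Ttc1, Ttc7, Ttc13, Ttc21a and Ttc25.

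**Figure D4:**
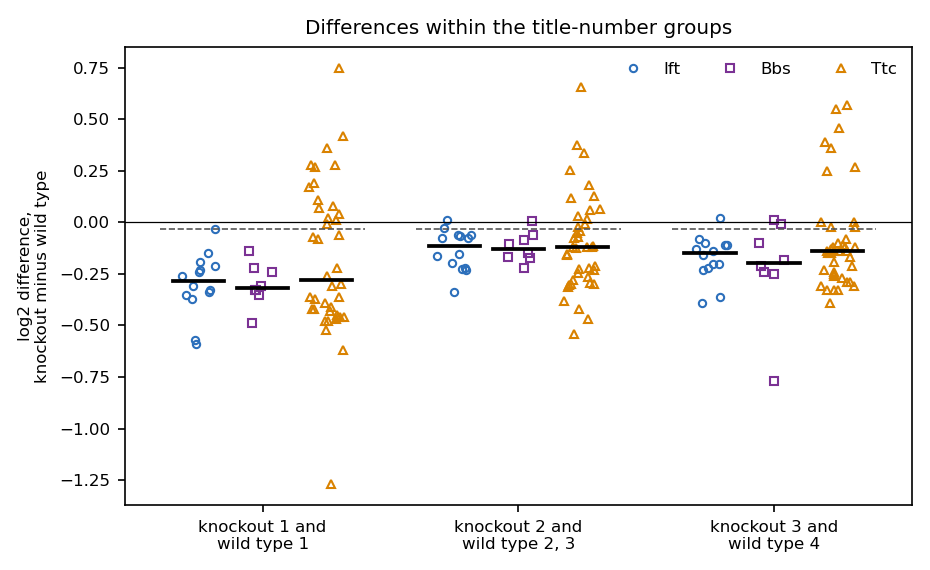
Knockout minus wild type difference in log2 signal for each member within the 3 title-number groups (1 knockout array and 1 or 2 wild type arrays each); solid bars are family medians and dashed lines the median of all genes, -0.03. The family medians lie below 0 in every group and are lowest in the group of knockout 1.

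How many members passed depended on which array was left out. Of the 18 genes, 12 stayed past the threshold without wild type 3 and 12 without wild type 4. Without knockout 2, 11 stayed past it, and 15 members fell and 4 rose, against 1210 and 1290 of all genes. In the other runs fewer passed. With limma on 6 arrays, 0 members passed without knockout 3 (26 lower and 3 higher at an unadjusted p under 0.05) and 0 without wild type 1 (26 lower and 5 higher). Shares of all genes at that unadjusted level were taken only on all 7 arrays, where 18.4% were lower and 15.4% higher. Only Ttc29 passed without knockout 1, and Ttc6, Ttc7b, Ttc9, Ttc16 and Ttc29 passed without wild type 2. Ttc29 passed in 5 of the 7 runs, Ttc6, Ttc7b, Ttc9 and Ttc16 in 4, and Ttc7 in none (adjusted p = 0.0489 on all 7 arrays). The tested genes past the threshold fell from 2934 to 175, 741, 996 and 1364 in the runs without knockout 3, wild type 1, knockout 1 and wild type 2. Median log2 fold changes of the members moved less, between -0.24 without knockout 2 and -0.16 without knockout 1. All 18 genes kept their sign in every run, which non-overlapping arrays fix in advance.

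Other genes of the pathway gave a context for the members. Of 12 IFT motor genes, 1 fell and 1 rose (median -0.18): the kinesin gene Kif17 fell by 0.32 (SE 0.09, adjusted p = 0.0450) and the dynein light chain gene Dynlrb1 rose by 0.58 (SE 0.12, adjusted p = 0.0212), while its testis-rich paralogue Dynlrb2 had a log2 difference of -0.19 (adjusted p = 0.0531). Of 5 measured IFT subunits with other names, none passed limma's threshold (median -0.11) and 1, Cluap1, was lower at an unadjusted p under 0.05 (-0.24, adjusted p = 0.12). Of 8 BBSome partners, Sdccag8 (-0.40, adjusted p = 0.0165) and Rab3ip (-0.33, adjusted p = 0.0198), which activates a Rab GTPase at the cilium base, fell and the ubiquitin ligase gene Trim32 rose (0.36, adjusted p = 0.0353). Of 19 transition zone genes, 3 fell and 1 rose (median -0.15). Nphp4 (-0.47, adjusted p = 0.0121) lies 0.48 Mb from Phf13, so the part of that position in its fall was not tested. Tmem237 (-0.27) and Tctn1 (-0.24) also fell, and Cc2d2a, dim in all arrays, rose (0.43).

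Transcription factors of ciliogenesis had the lowest median of these lists, -0.29, with 1 of 8 past the threshold: Rfx3, an RFX factor, fell by 0.55 (SE 0.11, adjusted p = 0.0179). Rfx2, required for spermatid development, had a log2 difference of -0.26 (adjusted p = 0.0913), Rfx4 of -0.20 (adjusted p = 0.129), Rfx1 of -0.38 (adjusted p = 0.130) and Foxj1 of -0.33 (adjusted p = 0.148). Of 9 genes of the manchette, the microtubule skirt of the spermatid, and of sperm tail transport, 4 fell (median -0.24), namely Spag16 (-0.37), Cep131 (-0.36), Katnal2 (-0.30) and Rimbp3 (-0.22). Of 12 ciliary GTPases and cargo genes, Inpp5e (-0.34) and Rab23 (-0.31) fell and Unc119, which carries lipid-tagged cargo, rose (0.64, adjusted p = 0.0159), with a median of -0.03.

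Markers of testis cell types were read beside these changes. Of 12 Sertoli cell markers 10 rose (median 0.70), with a mean log2 signal over the list of 8.65 to 8.85 in knockout and 8.0 to 8.35 in wild type arrays. Of 6 measured Leydig cell markers 4 rose (median 0.75; 9.70 to 10.16 and 8.87 to 9.34), and of 8 macrophage markers 4 rose (median 0.56; 6.56 to 7.24 and 6.16 to 6.49). Markers of meiotic and later germ cells that passed were lower: 2 of 10 for spermatocytes (median -0.12; 9.37 to 9.59 and 9.58 to 9.64) and 2 of 9 for round spermatids fell (median -0.19; 10.24 to 10.27 and 10.35 to 10.55). For elongating spermatids, 0 of 9 passed limma's threshold or an unadjusted p under 0.05 (median -0.07; 12.94 to 12.97 and 12.98 to 13.07). Spermatogonia markers had a median of 0.09 with 1 of 10 past the threshold, Etv5, which rose by 0.49 (7.17 to 7.37 and 7.05 to 7.24). For 6 endothelial markers the median was 0.11 with 0 past the threshold or an unadjusted p under 0.05 (4.58 to 4.87 and 4.5 to 4.69).

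The testis outlets also hold ciliated cells. Of 6 measured markers of their epithelium, which include Foxj1, none passed limma's threshold, 1 was lower at an unadjusted p under 0.05, and the median was -0.13 (5.91 to 5.94 and 5.95 to 6.19). Pax8 and Slc9a3 among them were dim, with percentiles of 12.7 and 14.5 of all genes, and Ccno lay at 24.4. The others were brighter, with Deup1 at 94.8, Foxj1 at 63.6 and Cftr at 51.2. Of 4 epididymis markers none passed limma's threshold or an unadjusted p under 0.05, and the median was -0.175 (4.03 to 5.29 and 4.28 to 4.92). The highest list means, in knockout 2 and wild type 3, rested on Adam7. Lcn5 and Lcn8 were lowest in knockout 2 (3.56 and 4.26). Lcn5 was highest in wild type 3 (4.19), Lcn8 in wild type 4 (4.69) and Rnase10 in wild type 2 (6.37). The part of cell composition in the fold changes of the Ift, Bbs and Ttc genes was not tested. In whole tissue, fewer cells of a type and less RNA per cell cannot be told apart.

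**Figure D5:**
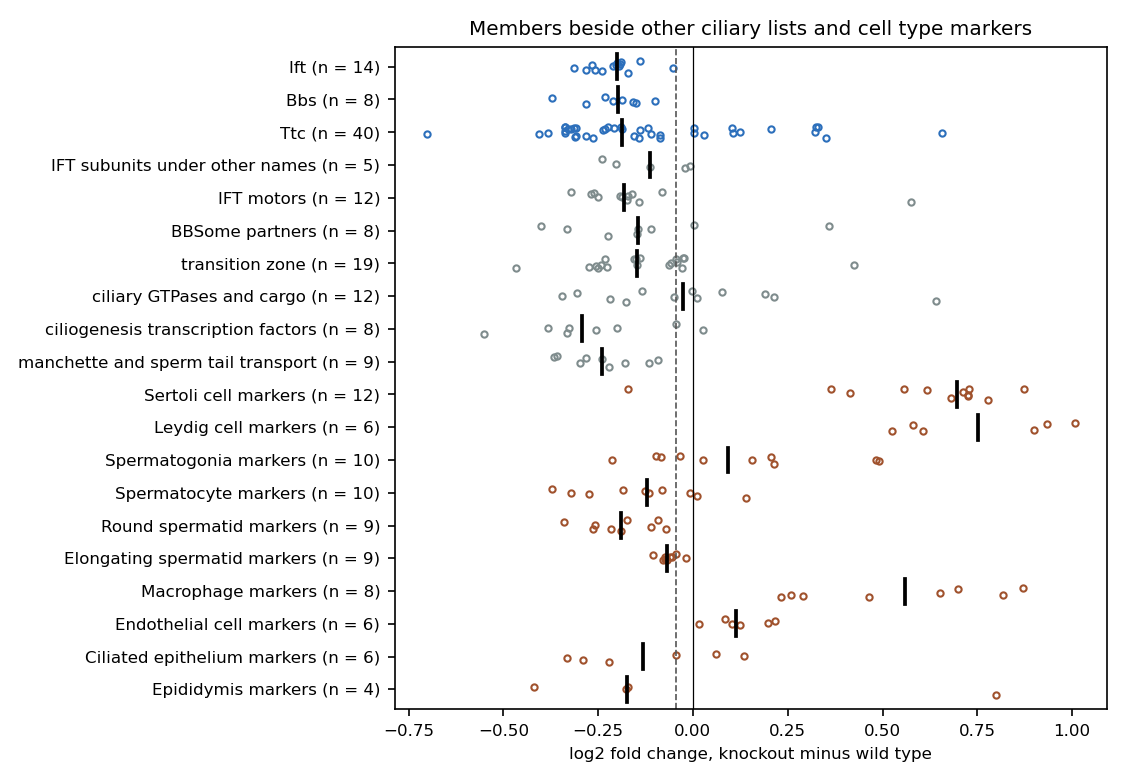
Log2 fold change of each measured gene (circles) and list median (bars) for the 3 member families, 7 other ciliary lists and 10 lists of cell type markers; the dashed line is the median of all tested genes. The Ift and Bbs genes lie below 0. So do the medians of the spermatocyte, round spermatid, elongating spermatid, ciliated epithelium and epididymis markers. The Sertoli, Leydig and macrophage medians lie between 0.56 and 0.75.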

How the data were processed

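The deposited table holds log2 signals of 45101 probe sets on 7 arrays. The submitters' processing notes name Affymetrix Expression Console 1.4.1; summarisation, background correction and normalization are not given in the sources used here. The log2 scale was read from the deposited values (1.59 to 13.92). A platform annotation gave 34958 probe sets 1 symbol, 932 several and 9211 none, and none was renamed by gene identifier. Each of 18194 genes was read at its brightest probe set by mean signal over the 7 arrays. The genotype contrast was fitted in R 4.3.3 by limma 3.58.1 (eBayes after lmFit; two-sided; Benjamini-Hochberg over all genes; threshold 0.05), a fit tested on simulated data. No detection calls were used.

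Members, lists and tests were chosen with earlier results of these data known. Genes were named if past the threshold, or among the 4 smallest p-values or the brightest of their role, or the 6 brightest members; for other ciliary lists, the 3 smallest p-values. Other genes named (Ttc3, Ttc5, Ttc14, Ttc17, Ttc30b, Ttc32, Ttc36, Ttc37, the Ttc39 genes, Adam7, Etv5, Lcn5, Lcn8, Rnase10, Bbs1, Ttc26, Ttc27, Tctn1, Katnal2, Rfx1, Foxj1, Myb, Trp73, Ccno, Deup1, Cftr, Pax8 and Slc9a3) were picked after their values were seen. Matching replicate numbers did not pair arrays: deviations from genotype means correlated at 0.18, 0.10 and -0.14 for numbers 1 to 3. Inside the title-number groups the knockout and wild type pairs all correlated above 0.1 (0.10 to 0.32), against -0.17 to 0.02 for pairs across groups, so values with these groups as a block stand beside the calls they change. The number's meaning is not stated.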

Additional observations from a re-analysis of the deposited data

Results flagged for a closer look

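Among 38 named genes (37 members and Phf13), 2 had a wild type array far from the other 3, with a gap to the nearest array above Dixon's critical share of the range; chance gives about 1 in 20 groups. Ift80 had a signal of 9.13 in wild type array 3, above the other wild type arrays (8.94 to 8.97). Ttc6 had a signal of 9.18 in wild type array 3, below the others (9.28 to 9.29). Knockout groups of 3 arrays were not examined this way.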

How the results depend on the processing

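The negative median of the members held in all 19 alternatives, from -0.25 with arrays centred on their median to -0.16 without knockout 1. Of the members, 24 fell with median centring, 13 with quantile normalization, 9 with title-number groups as a block and 6 with the replicate block. The replicate block kept 7 of the 18 genes past the threshold. Matching numbers did not pair the arrays of number 3, and those of numbers 1 and 2 share a title-number group. With median centring, 1572 of all genes rose and 2227 fell, against 1651 and 1283 as reported. Leaving out 1 array in turn gave 175 to 2574 genes past the threshold, 0 to 4 members that rose and 0 to 15 that fell. Without knockout 3 and wild type 4 together 4 genes passed, and 0 members rose and 0 fell with limma (23 lower and 4 higher at an unadjusted p under 0.05). Without knockout 2 and wild type 3 together, an alternative chosen after seeing the data, 1643 genes passed (964 rose and 679 fell). In that run 8 members fell and 3 rose. The 18 genes past the threshold kept their sign in all 19 alternatives. In the runs that left arrays out, their non-overlapping arrays fix this in advance. Of the Ift and Bbs genes, only Ift20, which never passed, changed sign, without knockout 1.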
